A study of Mus musculus with 8 samples.

Results

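Genes for chromatin remodellers, histone methylation enzymes and bromodomain proteins were followed in EDL muscle of the mouse (extensor digitorum longus, a hindlimb muscle made up mainly of fast fibres). The set was drawn by gene symbol: the families Kdm, Kmt2, Setd, Smarc, Chd and Brd, with Ezh1, Ezh2, Arid1a, Arid1b and Arid2. Of 20145 genes that a probe named through its RefSeq accession, 64 belonged to the set, and 62 of these were among the 12738 genes tested. The untested members, Kdm4d and Kdm5d, were not well above background on any of the 8 arrays. Chd7, Kdm4dl, Kmt2a, Setd1b, Setdb2 and the pseudogene Smarce1-ps1 were not matched to a probe and are not analysed here.

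RNA came from 8 male C57BL/6 mice, each hybridised to its own single-colour array. In 4 of them, called PCKO, p300 (Ep300) and CBP (Crebbp) had been knocked out by an inducible system restricted to skeletal muscle, per the labels' protocol, although the genotype field names CBP alone; which promoter restricts the knockout to muscle is not stated there. The other 4 were wild type (WT). PCKO mice received tamoxifen, which induces the knockout, orally on 5 days, starting when they were 13 to 15 weeks old. The same age and days are recorded for the WT samples, but the protocol does not spell out whether WT mice were dosed alike. Muscle was collected 1 day after the last dose, after a fast of 4 h. The comparison asks how the muscle transcriptome differs soon after the knockout is induced. Whether both proteins were gone by then was not measured on these arrays.

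p300 and CBP are acetyltransferases that place acetyl groups on histone tails and on many transcription regulators, and bromodomains are the protein modules that bind acetylated lysine. Histone methyltransferases with a SET domain (Kmt2, Setd and Ezh proteins) and histone demethylases (Kdm proteins) write and erase methyl marks on histone lysines. Remodellers of the SWI/SNF, ISWI and CHD classes use ATP to slide or evict nucleosomes, and in skeletal muscle a SWI/SNF complex that carries Smarcd3 (BAF60c) is known to work with the myogenic factor MyoD at muscle genes.

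Most of these genes were higher in PCKO muscle relative to other genes, and the exception of greatest size was Smarcd3, which was 6.84-fold lower. Of the 62 tested members, 39 were higher in PCKO and 11 were lower, and 12 did not pass the test. In the background of all genes tested, 38.3% were higher and 32.7% lower, or 71% in either direction. The members' median log2 difference was 0.41, against 0.06 over all genes. For 46 members the 4 PCKO values all lay on 1 side of the 4 WT values, as they did for 65.8% of all genes. Most differences were small. Only 6 members were at least 2-fold higher (Kdm5a, Chd5, Setd4, Smarcad1, Chd4 and Kdm1a), where 11.7% of all genes were, and 2 were at least 2-fold lower (Smarcd3, and Chd6 on its brightest probe only, its other probe being higher), where 13.9% were.

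Values are log2 intensities relative to the 75th percentile of the same array, so 0 is that percentile and a level of one gene cannot be set against that of another. Differences in log2 intensity are given as PCKO minus WT and carry the standard error from a limma fit over all tested genes (4 mice per group), and a gene was called at an adjusted p under 0.05. Because muscle holds several cell types, fewer cells of a type and less RNA per cell cannot be told apart.

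**Figure D1:**
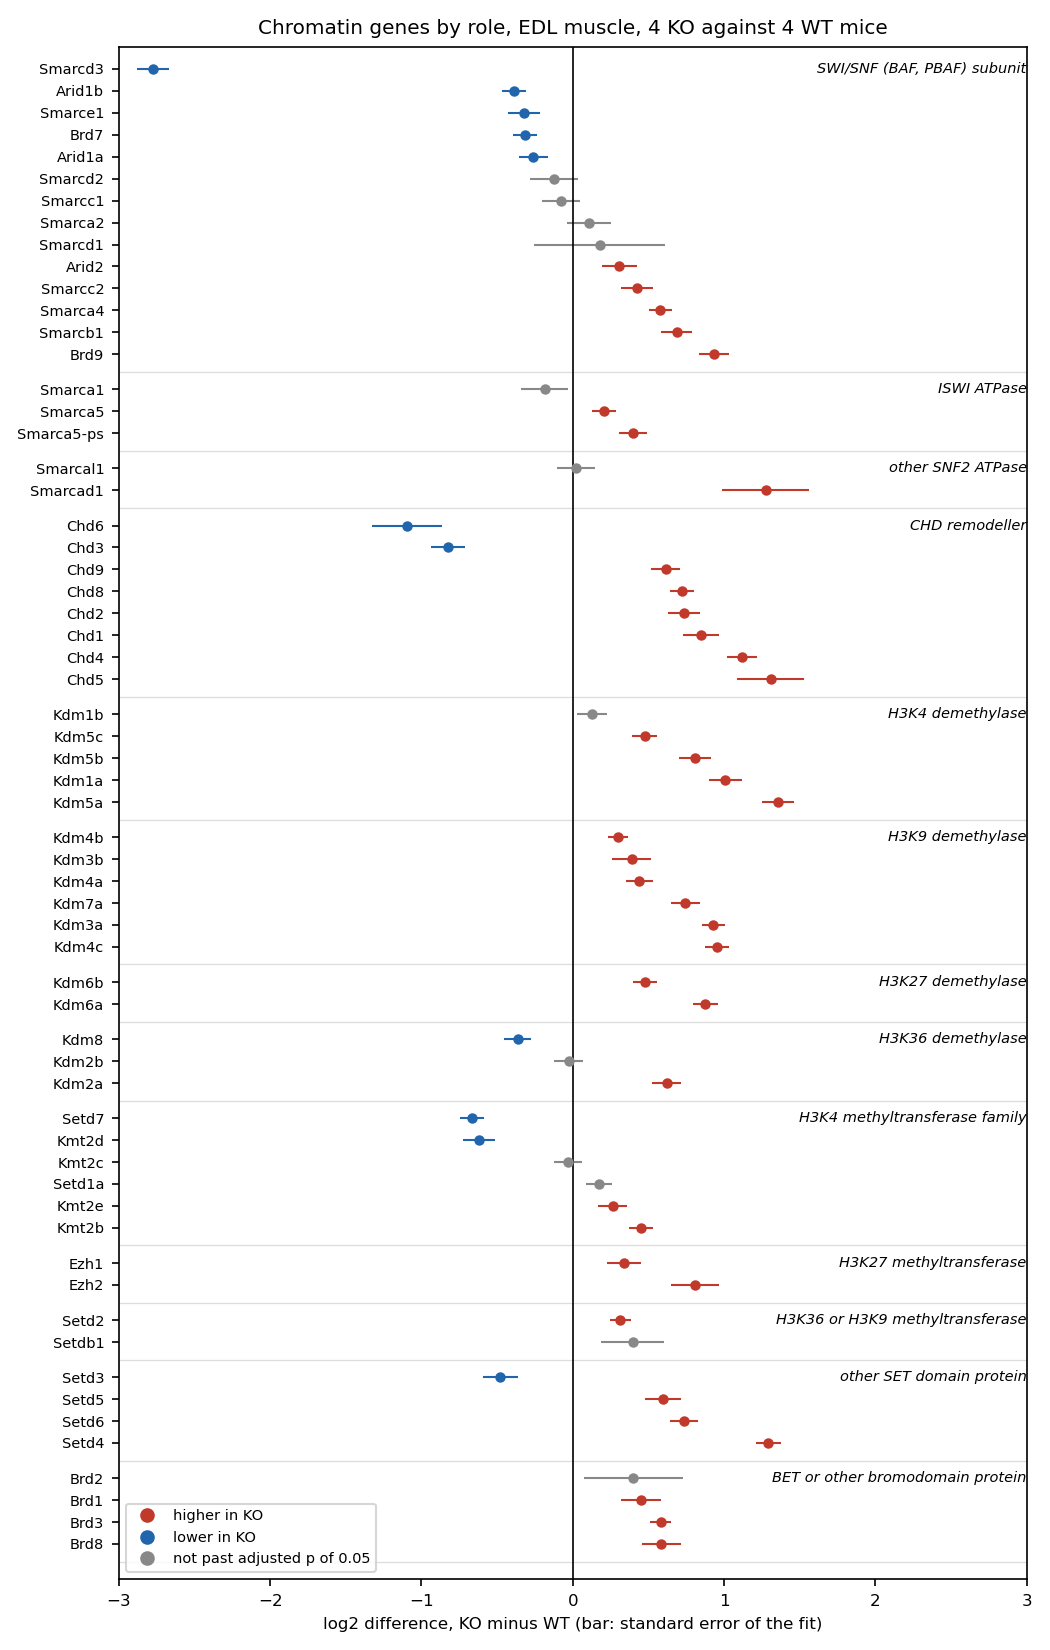
Log2 difference (PCKO minus WT, horizontal axis) of tested chromatin genes, grouped by role, with PCKO labelled KO as in all plots, and bars give the limma standard error. Red points are genes called higher in PCKO, blue points genes called lower and grey points genes not called. Most roles lie to the right of 0, SWI/SNF subunits lie on both sides, and Smarcd3 stands alone at -2.77.

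The scaling mattered for small falls. The 75th percentile itself was 0.68 log2 units higher in PCKO relative to 7 spike-in control probes (means of -2.80 and -3.48, SD 0.33 and 0.30, n = 4 in each group, and a two-sided exact permutation p = 0.029, which is the smallest that 4 against 4 allows). Centred on the spike-ins, 47 members were higher and Smarcd3 alone was lower, while 54.0% of all genes were higher and 9.44% lower. The members' median was 1.10 there, against 0.74 over all genes. In that setting errors common to a whole array enter the test, and its p-values are too small. That centring adds a constant to each array, so the distance of 0.36 between the members' median and that of all genes could not change with it. With quantile normalization, which can change it, the distance was 0.30, and with the deposited values, which cover fewer genes, it was 0.20.

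**Figure D2:**
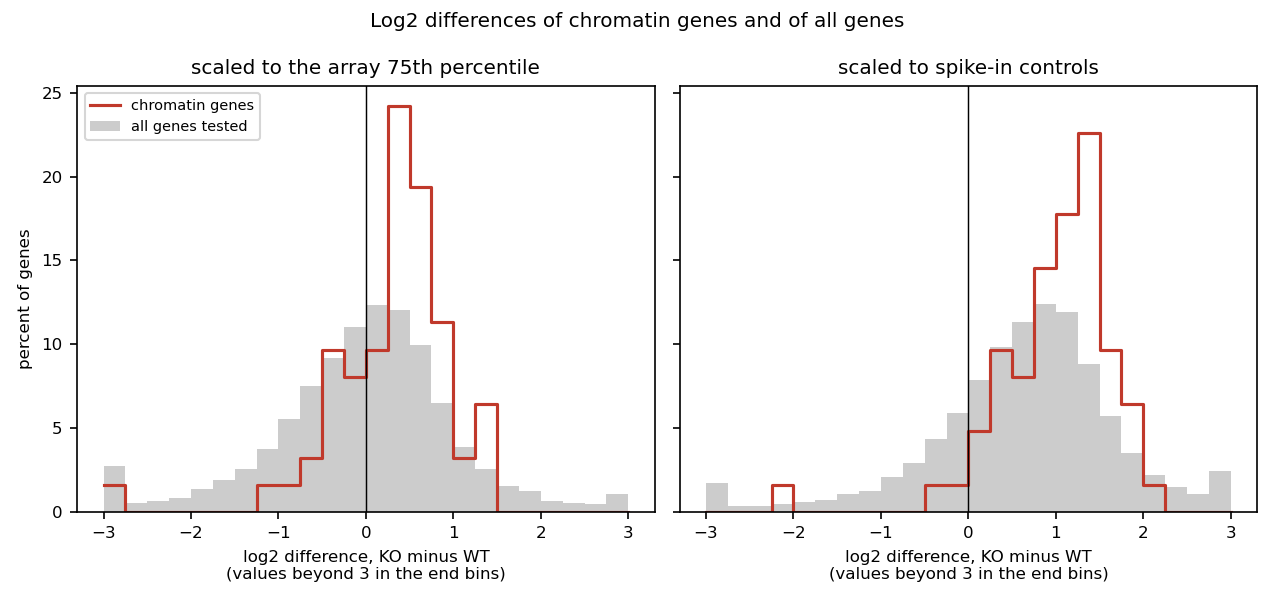
Share of genes (percent, vertical axis) by log2 difference (PCKO minus WT, horizontal axis, bins of 0.25 with values beyond 3 in the end bins). Grey bars are all 12738 genes tested and the red outline the 62 chromatin genes; the left panel uses the array's 75th percentile and the right panel the spike-in controls. The bulk of the red outline lies to the right of that of the grey bars in both panels (medians of 0.41 against 0.06 and of 1.10 against 0.74).

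Facts of the whole series bear on these values. Between 24179 and 25669 probes (43.4% to 46.1%) were well above background on an array and none was saturated; arrays of a group correlated at 0.989 to 0.992 over genes and arrays of different groups at 0.911 to 0.925. Both targeted genes were lower in PCKO (Ep300 by -1.44 ± 0.11, Crebbp by -0.70 ± 0.11; limma, adjusted p = 5.5e-06 and 3.8e-04), but where their probes lie relative to the deleted parts is not known here. The fall of Crebbp was about as large as the 0.68 by which the 75th percentile rose against the spike-ins. It therefore depended on the scaling. Markers of the tissue were present and moved with the groups: all 9 fast fibre markers were lower, with a summed level (in multiples of the array's 75th percentile) of 2566 to 3019 in PCKO and 7388 to 9209 in WT, and all 6 slow fibre markers were lower. So were all 7 endothelial, all 5 fibroblast and all 5 smooth muscle markers and 5 of 6 macrophage markers, with summed levels of 20.0 to 23.8 against 42.1 to 45.3 for endothelium and 11.6 to 23.1 against 28.6 to 37.3 for macrophages. Other lists were mixed: 3 of 4 satellite cell, 1 of 3 adipocyte and 1 of 2 T cell markers were lower and the rest not called, and of 4 Schwann cell markers 1 was higher, 1 lower and 2 not called. Among satellite cell, T cell and macrophage markers, Myf5, Cd3d, Cd8a and Cd68 were too dim to test. A summed level mostly follows the brightest probes of its list. All marker falls are relative to the 75th percentile, which rose by 0.68 in PCKO against the spike-ins. Falls smaller than that depend on this scaling, among them Pecam1 (-0.42), Cdh5 (-0.60), Mrc1 (-0.45), Dcn (-0.64), Tnnc2 (-0.47) and Myh4 (-0.66). The part of these marker shifts in the values below was not tested.

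The 14 SWI/SNF subunits of the set did not move as a block. Smarcd3 fell strongly, Arid1b, Smarce1, Brd7 and Arid1a were slightly lower, Brd9, Smarcb1, Smarca4, Smarcc2 and Arid2 were higher, and the other 4 were not called. Their median was 0.01, below the 0.06 of all genes. Smarcd1, Smarcd2 and Smarcd3 encode the alternative BAF60 subunits, of which a complex carries a single kind. The 250 bases before the first listed start of each of the 3 genes are shown. The genes are alternatives for the same place in the complex and their values parted so widely. Any other starts of these genes were not examined, and their windows may differ. The sequences are from RefSeq (GRCm38.p6), 5′ to 3′ on the gene's own strand, with each E-box in capitals (letters CANNTG, read on both strands, the class of sites bound by MyoD and many other factors). Smarcd3 lies on the minus strand at chr5:24602003-24602252, Smarcd2 on the minus strand at chr11:106267633-106267882, and Smarcd1 on the plus strand at chr15:99702037-99702286.
Smarcd3: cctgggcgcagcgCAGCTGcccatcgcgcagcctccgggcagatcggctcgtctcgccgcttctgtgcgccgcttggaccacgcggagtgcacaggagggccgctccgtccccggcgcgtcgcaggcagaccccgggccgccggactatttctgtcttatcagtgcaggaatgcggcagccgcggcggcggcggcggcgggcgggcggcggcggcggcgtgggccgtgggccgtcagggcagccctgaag
Smarcd2: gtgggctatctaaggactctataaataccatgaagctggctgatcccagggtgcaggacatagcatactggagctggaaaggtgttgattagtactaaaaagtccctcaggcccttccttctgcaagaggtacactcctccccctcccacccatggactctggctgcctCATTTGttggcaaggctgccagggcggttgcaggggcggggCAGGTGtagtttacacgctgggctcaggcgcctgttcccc
Smarcd1: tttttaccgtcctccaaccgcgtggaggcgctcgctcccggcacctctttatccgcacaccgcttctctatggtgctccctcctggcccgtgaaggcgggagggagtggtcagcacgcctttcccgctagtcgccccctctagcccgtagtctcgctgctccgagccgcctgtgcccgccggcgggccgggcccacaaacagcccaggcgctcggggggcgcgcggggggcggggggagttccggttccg

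The Smarcd3 window held 1 E-box, 38 CpG dinucleotides and no TATAAA. The Smarcd2 window held 2 E-boxes, 1 TATAAA and 4 CpG, and that of Smarcd1 held no E-box and 29 CpG. Such letters are common: 57.5% of the 10143 windows of tested genes hold an E-box, so a match describes the sequence and does not mark a bound site.

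Smarcd3 had values of 2.71, 2.61, 2.96 and 2.76 in PCKO mice 1 to 4, and of 5.67, 5.56, 5.59 and 5.33 in WT mice 1 to 4. Every PCKO value lay far below every WT value, and the spread within each group was small (SD 0.15 and 0.15). The log2 difference was -2.77 ± 0.11 (limma, adjusted p = 1.1e-07), and it lay between -2.95 and -2.09 over all other settings, the value nearest 0 being that with spike-in centring. Smarcd2 ranged from 0.50 to 0.83 in PCKO and from 0.41 to 1.05 in WT, so that its groups overlapped (difference -0.12 ± 0.16, adjusted p = 0.49). Smarcd1 was dim, above background on 3 PCKO arrays and 1 WT array, and its difference of 0.18 ± 0.43 was not called (adjusted p = 0.72). With another background correction (normexp on the median spot signal) Smarcd1 was called lower, at -0.46 (adjusted p = 0.0090), and with spike-in centring it was called higher, at 0.86, so that no direction can be given for it.

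Brd9, a bromodomain subunit of the non-canonical BAF complex, was higher in PCKO. Its values were 1.98, 2.20, 2.18 and 2.16 in PCKO and 1.04, 1.29, 1.08 and 1.38 in WT, with no overlap and a difference of 0.93 ± 0.10 (adjusted p = 4.8e-05). Its relative Brd7, a subunit of PBAF, ran the other way, with 6.33, 6.12, 6.35 and 6.21 in PCKO against 6.54, 6.58, 6.50 and 6.65 in WT. The groups of Brd7 did not overlap either, but its difference of -0.32 ± 0.08 was near 0 with quantile normalization (0.01) and positive with spike-in centring (0.37). Smarcb1, a core subunit known as a tumour suppressor, rose by 0.69 ± 0.10, from 1.61 to 2.04 in WT to 2.46 to 2.60 in PCKO. Smarca4 (BRG1), one of the alternative motor ATPases, had 6.62, 6.42, 6.62 and 6.50 in PCKO and 5.94, 5.90, 6.00 and 6.00 in WT, a difference of 0.58 ± 0.07 without overlap.

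Smarca2 (BRM), the other motor, overlapped between groups (3.88 to 3.97 in PCKO, 3.51 to 4.26 in WT) at 0.11 ± 0.15. Without WT mouse 4, the highest of its group, Smarca2 was called higher (0.25, adjusted p = 0.032). Among the scaffold subunits, Smarcc2 rose by 0.42 ± 0.11. Smarcc1 gave no single answer, since its brightest probe differed by -0.08 ± 0.13 and its dimmer probes by 0.86 ± 0.15 and 0.48 ± 0.15 in a fit over all probes.

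The Arid subunits, which set the complex type, differed in sign. Arid1b, of canonical BAF, had 3.14, 3.23, 3.31 and 3.16 in PCKO and 3.59, 3.50, 3.74 and 3.56 in WT, lower in every PCKO mouse (-0.39 ± 0.08, adjusted p = 0.0023). Arid1a, its relative, was lower by a margin that overlapped (-0.26 ± 0.10, adjusted p = 0.035), with 3.18 to 3.45 in PCKO and 3.40 to 3.71 in WT. With spike-in centring the differences of Arid1b and Arid1a were 0.30 and 0.42 and neither was called. Arid2, of PBAF, was higher, with 1.50, 1.35, 1.28 and 1.40 in PCKO against 0.77, 1.24, 1.10 and 1.19 in WT (0.31 ± 0.11, adjusted p = 0.036).

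Calls this small lay near the threshold and were lost on leaving out any 1 of several mice. Arid1a was not called without PCKO mouse 2, 3 or 4 or WT mouse 1, 3 or 4 (differences from -0.27 to -0.21, adjusted p from 0.059 to 0.091). Arid2 was not called without PCKO mouse 1, 2 or 4 or WT mouse 1 or 3 (0.21 to 0.32, adjusted p from 0.055 to 0.092). Smarce1, a DNA-binding subunit with a difference of -0.32 ± 0.11, was not called without PCKO mouse 1 (-0.31), PCKO mouse 4 (-0.29) or WT mouse 2 (-0.31), with adjusted p of 0.051, 0.059 and 0.050, and was positive with spike-in centring (0.36) and with normexp (0.06).

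ISWI ATPases showed little change. Smarca5 (SNF2H), the broadly expressed motor, was higher by 0.21 ± 0.08, with 4.24 to 4.54 in PCKO and 4.13 to 4.26 in WT. It was not called without PCKO mouse 2, 3 or 4 or WT mouse 1, 2 or 3 (0.16 to 0.21, adjusted p from 0.080 to 0.114). The pseudogene Smarca5-ps was higher by 0.40 ± 0.09, but it is named for its parent gene and probes of the 2 may share sequence, so its value is uncertain. Smarca1 (SNF2L) was not called (-0.18 ± 0.16).

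Smarcad1, an SNF2-type ATPase linked to heterochromatin upkeep after replication, had 2.31, 0.97, 0.89 and 1.34 in PCKO and 0.01, 0.28, -0.02 and 0.15 in WT. The groups did not overlap, but PCKO mouse 1 stood well above the other 3 and widened the error (1.27 ± 0.28, adjusted p = 0.0035). Without that mouse the difference was 0.96 and still called. Smarcal1, which rewinds DNA at stalled forks, did not differ beyond its error (0.02 ± 0.13).

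All 8 CHD remodellers passed the test on their brightest probe, 6 higher and 2 lower, and none overlapped between groups. Of all genes, 71% passed and 65.8% did not overlap. Chd6, counted as lower, was higher on its other probe. Chd4 and Chd3 are alternative ATPases of NuRD, a complex that joins remodelling to histone deacetylation, and they moved in opposite directions. Chd4 had 6.06, 5.67, 6.06 and 5.99 in PCKO and 4.83, 4.77, 4.82 and 4.90 in WT, higher in every PCKO mouse by 1.12 ± 0.10 (adjusted p = 1.5e-05). Chd3 had 1.88, 1.99, 1.78 and 1.54 in PCKO and 2.53, 2.65, 2.54 and 2.78 in WT, lower in every PCKO mouse by -0.83 ± 0.11 (adjusted p = 1.9e-04). With spike-in centring the fall of Chd3 was not called (-0.14, adjusted p = 0.69).

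Chd5, the form of this subfamily best known from brain and testis, had -0.87, -0.91, -0.89 and -1.10 in PCKO and -1.84, -1.89, -2.92 and -2.35 in WT. It was higher in every PCKO mouse by 1.31 ± 0.22 (adjusted p = 7.4e-04), but with normexp it differed by 0.27 and was not called (adjusted p = 0.090). Chd1 and Chd2, remodellers tied to transcribing polymerase, were higher by 0.85 ± 0.12 and 0.74 ± 0.10. Chd1 was dim (-2.19 to -1.86 in PCKO and -3.19 to -2.74 in WT) and its difference was -0.02 with normexp. Chd8 and Chd9 were higher by 0.72 ± 0.08 and 0.62 ± 0.10.

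Chd6 was the only member with probes called in opposite directions. Its brighter probe had -1.91, -1.68, -1.88 and -1.57 in PCKO and -0.64, -0.12, -0.54 and -1.36 in WT, lower in every PCKO mouse (-1.10 ± 0.23, adjusted p = 0.0027). Its other probe had -0.98, -1.34, -1.22 and -1.48 in PCKO and -2.24, -2.66, -3.04 and -2.17 in WT, higher in every PCKO mouse (1.27 ± 0.20, adjusted p = 6.5e-04 in a fit over all probes). Both probes carry the same RefSeq accession. No direction can therefore be given for the gene, and the mean of its probes differed by 0.09 (adjusted p = 0.49). With slide row 2 alone, the brighter probe was not called (-0.77, adjusted p = 0.11).

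**Figure D3:**
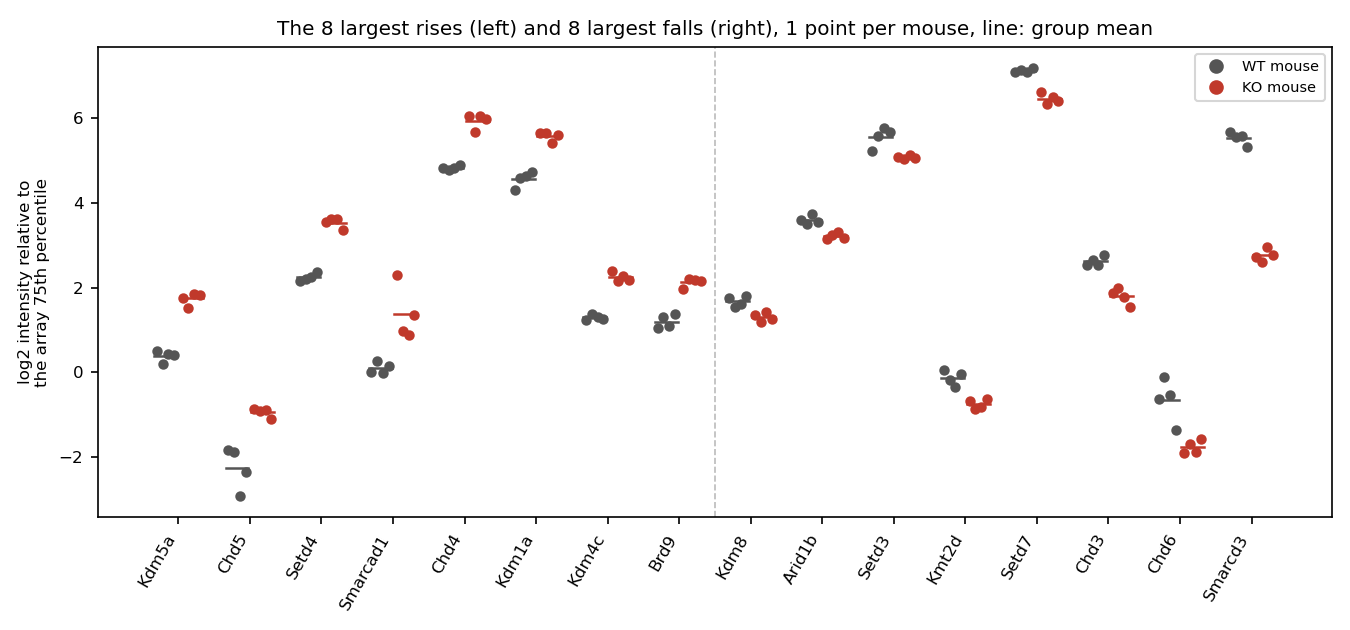
Log2 intensity relative to the array's 75th percentile (vertical axis) of the 8 largest rises (left of the dashed line) and 8 largest falls (right) among called members whose groups did not overlap. Grey points are WT mice, red points PCKO mice and short lines group means. PCKO mouse 1 stands apart for Smarcad1 at 2.31, and Smarcd3 shows the widest distance between groups.

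Histone demethylases were mostly higher: 13 of the 16 tested Kdm genes rose and 1 fell, beside 38.3% higher and 32.7% lower over all genes. Groups by histone mark are small, and their counts are a description. All 6 that act on H3K9 rose, as did both that act on H3K27 and 4 of 5 that act on H3K4. Only the 3 that act mainly on H3K36 were split, with 1 higher, 1 lower and 1 not called.

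Among enzymes that remove H3K4 methylation, Kdm5a (RBP2/JARID1A) showed the largest rise of the whole set. It had 1.76, 1.52, 1.86 and 1.83 in PCKO and 0.50, 0.19, 0.43 and 0.42 in WT, higher in every PCKO mouse by 1.36 ± 0.10 (adjusted p = 6.0e-06). Kdm1a (LSD1), a flavin-dependent demethylase of the CoREST complex, had 5.65, 5.65, 5.40 and 5.60 in PCKO and 4.30, 4.60, 4.63 and 4.73 in WT, again without overlap (1.01 ± 0.11, adjusted p = 4.8e-05). Its relative Kdm1b (LSD2) overlapped between groups (2.77 to 2.91 in PCKO and 2.49 to 2.90 in WT, difference 0.13 ± 0.10). Kdm5b rose by 0.81 ± 0.10, with 4.08 to 4.17 in PCKO and 3.08 to 3.52 in WT. Kdm5c rose by 0.48 ± 0.08, but its dimmer probe did not (-0.12 ± 0.14), and the deposited values gave -0.08.

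Among H3K9 demethylases, Kdm4c had 2.39, 2.15, 2.27 and 2.18 in PCKO and 1.23, 1.38, 1.30 and 1.26 in WT. It was higher in every PCKO mouse by 0.95 ± 0.08 (adjusted p = 9.3e-06). Kdm3a, known as a hypoxia-inducible demethylase, had 2.82, 2.75, 2.75 and 2.88 in PCKO and 1.78, 1.84, 1.97 and 1.88 in WT, a difference of 0.93 ± 0.07 without overlap. Kdm7a, which also acts on H3K27, was higher by 0.74 ± 0.09 on its brightest probe and by 0.81 on the other. Kdm4a and Kdm4b rose by less (0.44 ± 0.09 and 0.30 ± 0.07). Kdm3b overlapped between groups (0.39 ± 0.13, adjusted p = 0.025) and was not called without PCKO mouse 3 (0.38), PCKO mouse 4 (0.32), WT mouse 2 (0.34) or WT mouse 4 (0.31), with adjusted p from 0.054 to 0.068.

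Both H3K27 demethylases rose. Kdm6a (UTX), an X-linked gene, had 0.11, -0.06, 0.24 and 0.13 in PCKO and -0.78, -0.66, -0.82 and -0.83 in WT (0.88 ± 0.09, adjusted p = 2.6e-05). Kdm6b (JMJD3), often induced by inflammatory and stress signals, had 3.27, 3.14, 3.41 and 3.40 in PCKO and 2.82, 2.86, 2.82 and 2.80 in WT (0.48 ± 0.08, adjusted p = 7.1e-04). Neither gene overlapped between groups.

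Kdm2a, a CpG-island binding demethylase of H3K36, rose by 0.62 ± 0.10, while its relative Kdm2b, a subunit of a variant PRC1 complex, was not called (-0.03 ± 0.09). With spike-in centring Kdm2b was called higher (0.66, adjusted p = 0.049). Kdm8, a JmjC protein first described as an H3K36 demethylase, had 1.36, 1.19, 1.43 and 1.27 in PCKO and 1.75, 1.55, 1.61 and 1.79 in WT. It was the only Kdm gene called lower (-0.36 ± 0.09, adjusted p = 0.0052), but its difference was 0.32 with spike-in centring and not called.

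Genes for histone methyltransferases showed no common direction. Of 6 in the H3K4 group, Kmt2b and Kmt2e were higher, Setd7 and Kmt2d lower, and Kmt2c and Setd1a not called. Setd7, a monomethyltransferase that also modifies non-histone proteins, had 6.62, 6.34, 6.50 and 6.41 in PCKO and 7.09, 7.14, 7.10 and 7.18 in WT. It was lower in every PCKO mouse by -0.66 ± 0.08 (adjusted p = 9.1e-05), but at 0.02 with spike-in centring. Kmt2d (MLL4), an enhancer methyltransferase known to act in muscle differentiation, had -0.69, -0.88, -0.82 and -0.64 in PCKO and 0.05, -0.19, -0.35 and -0.04 in WT. These groups did not overlap (-0.62 ± 0.11, adjusted p = 7.3e-04), whereas its second probe overlapped (0.08 ± 0.15) and spike-in centring gave 0.06.

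Kmt2b (MLL2) had 3.49, 3.33, 3.39 and 3.31 in PCKO and 2.83, 2.84, 3.05 and 2.97 in WT, higher in every PCKO mouse by 0.45 ± 0.08. Kmt2e, whose SET domain is thought to lack activity, was higher by 0.26 ± 0.09 with overlap. It was not called without PCKO mouse 1, 2 or 3 or WT mouse 1, 2 or 3 (0.22 to 0.27, adjusted p from 0.058 to 0.086). Kmt2c (MLL3) differed by -0.03 ± 0.09 and Setd1a by 0.17 ± 0.09, and neither passed the test.

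Both catalytic subunits of PRC2, the H3K27 methyltransferase complex, were higher. Ezh2, the form typical of dividing cells, had 1.27, 1.13, 1.13 and 1.31 in PCKO and 0.04, 0.59, 0.20 and 0.78 in WT (0.81 ± 0.16, adjusted p = 0.0017). Ezh1, the form typical of resting and differentiated cells, had 6.25, 6.24, 6.43 and 6.24 in PCKO and 5.66, 5.95, 6.05 and 6.15 in WT (0.34 ± 0.11, adjusted p = 0.025). Neither overlapped, but Ezh1 was not called without PCKO mouse 3 (0.29, adjusted p = 0.068) or WT mouse 2 (0.34, adjusted p = 0.050). Of 8 proliferation markers listed, Top2a, Ccnb1 and Cdk1 were too dim to test. Ccna2 (1.33) and Pcna (0.35) were higher, Mki67 (-1.66) and Mcm2 (-1.09) were lower and Mcm5 was not called. Their summed level was 13.2 to 13.8 in PCKO and 10.0 to 13.8 in WT, but it mostly follows Pcna, the brightest of them. The part of these markers in the value of Ezh2 was not tested.

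Setd2, the main writer of H3K36 trimethylation, rose by 0.31 ± 0.07, with 3.83 to 3.95 in PCKO and 3.48 to 3.65 in WT. Setdb1, an H3K9 methyltransferase, overlapped between groups (0.40 ± 0.21). Without PCKO mouse 1, the lowest of its group, Setdb1 was called higher (0.56, adjusted p = 0.025).

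The remaining SET domain genes encode proteins whose main substrates are not histones or are less well settled. Setd4 had 3.55, 3.61, 3.61 and 3.36 in PCKO and 2.16, 2.21, 2.25 and 2.36 in WT, more than 1 log2 unit apart throughout (1.29 ± 0.08, adjusted p = 2.3e-06). Setd6 and Setd5 rose by 0.74 ± 0.09 and 0.60 ± 0.12. Setd3, the actin histidine methyltransferase, had 5.09, 5.04, 5.13 and 5.07 in PCKO and 5.23, 5.58, 5.77 and 5.67 in WT. It was lower in every PCKO mouse (-0.48 ± 0.12, adjusted p = 0.0051), but was not called with quantile normalization (-0.24) or normexp (-0.32) and was positive with spike-in centring (0.20).

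Among bromodomain genes outside SWI/SNF, Brd3, Brd8 and Brd1 were higher and Brd2 was not called. Brd3, a BET protein that binds acetylated histones, had 4.91, 4.81, 4.81 and 4.82 in PCKO and 4.17, 4.21, 4.29 and 4.35 in WT (0.58 ± 0.07, adjusted p = 9.6e-05). Brd2, also a BET protein, was dim and overlapped (-3.10 to -2.27 in PCKO and -3.99 to -2.36 in WT, difference 0.40 ± 0.33).

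Brd8, a subunit of the Tip60 acetyltransferase complex, rose by 0.58 ± 0.13. Brd1, a scaffold of MYST acetyltransferases, rose by 0.45 ± 0.13 but differed by -0.03 with normexp.

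Since a ratio of 2 genes on the same array does not depend on how arrays are scaled to each other by a constant, related genes were also compared as log2 ratios within each array. Of 23 pairs listed, both genes were tested in 19. In 13 pairs the PCKO and WT ratios did not overlap (two-sided exact permutation test over mice, p = 0.029 for each pair, which is the smallest it can give, and 0.042 after Benjamini-Hochberg adjustment over the 19 pairs), and 6 pairs overlapped. The first-named gene gained on the second in 12 of the 13, but which gene is named first was a choice. The sign of a shift therefore has meaning only within its pair. No share over other pairs of genes was computed to set beside the 13, and of single genes 65.8% did not overlap.

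The widest shift with both genes above background lay within the BAF60 subunits. The log2 ratio of Smarcd2 to Smarcd3 was -2.21, -1.78, -2.46 and -2.03 in PCKO and -5.26, -4.51, -4.97 and -4.34 in WT, a shift of 2.65 ± 0.25 toward Smarcd2. For NuRD, the log2 ratio of Chd4 to Chd3 was 4.18, 3.69, 4.28 and 4.46 in PCKO and 2.30, 2.12, 2.28 and 2.12 in WT, a shift of 1.94 ± 0.17 toward Chd4. The log2 ratio of Brd7 to Brd9 was 4.35, 3.91, 4.16 and 4.05 in PCKO and 5.50, 5.28, 5.41 and 5.27 in WT, a shift of -1.25 ± 0.11 toward Brd9. In each of these pairs every PCKO mouse lay beyond every WT mouse.

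The demethylase pairs shifted by less. The log2 ratio of Kdm1a to Kdm1b was 2.74, 2.75, 2.64 and 2.70 in PCKO and 1.82, 1.77, 1.88 and 1.83 in WT, one of the tightest pairs (0.88 ± 0.03). Kdm2a gained 0.65 ± 0.13 on Kdm2b (0.39 with overlap when the probes of a gene were averaged), Kdm5a gained 0.55 ± 0.17 on Kdm5b, and Kdm3a gained 0.54 ± 0.14 on Kdm3b. Kdm6a gained 0.40 ± 0.04 on Kdm6b, but that ratio shifted by -0.14 with overlap when normexp was used. Among the rest, Kmt2c gained 0.59 ± 0.16 on Kmt2d, Arid2 gained 0.57 ± 0.17 on Arid1a, Ezh2 gained 0.47 ± 0.14 on Ezh1, and Smarca4 gained 0.47 ± 0.16 on Smarca2. With the mean of each gene's probes the groups overlapped for Kmt2c and Kmt2d (0.24), and with normexp they overlapped for Arid2 and Arid1a (0.41) and for Smarca4 and Smarca2 (0.51).

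The pairs that overlapped included Smarca5 and Smarca1 (0.39 ± 0.19), Kdm4a and Kdm4b (0.14 ± 0.06), Arid1a and Arid1b (0.13 ± 0.10), and Smarcc1 and Smarcc2 (-0.50 ± 0.23). Across the settings run for ratios, apart from either slide row alone, Smarcd1 and Smarcd2 with Smarcd3, Chd4 with Chd3, Kdm1a with Kdm1b, Kdm3a with Kdm3b, and Brd7 with Brd9 never overlapped. Ratios of Ezh2 to Ezh1 and of Kdm5a to Kdm5b overlapped with quantile normalization, with normexp and with the mean of each gene's probes, and that of Kdm5a to Kdm5b also with the deposited values (0.44).

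**Figure D4:**
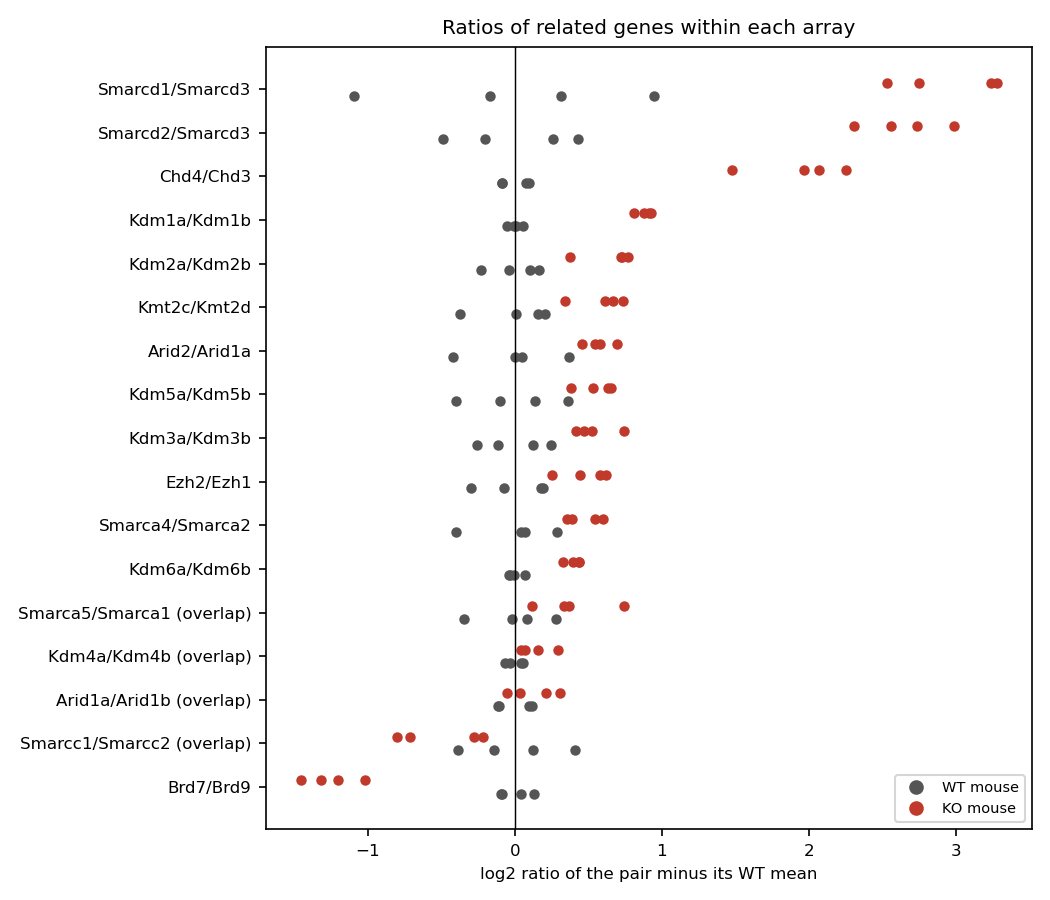
Log2 ratio of related genes within each array, minus the pair's WT mean (horizontal axis), for pairs of related genes; grey points are WT mice and red points PCKO mice. Pairs whose groups overlap are marked. Ratios to Smarcd3 and the ratio of Chd4 to Chd3 lie farthest to the right, and Brd7 to Brd9 lies to the left at -1.25.

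Probes of the same gene did not always give the same call. Of 95 probes for the set, 86 were tested, and 19 genes had several. In 9 of these all probes were called the same way, in 7 some probes were called one way and the others not called, in 2 no probe was called, and in Chd6 alone the calls were opposite. Kdm5b was higher on both probes (0.81 and 1.18), as was Arid2 (0.31 and 0.68). Ezh1 was higher on 2 of 3 probes, and the dimmest was at 0.30 ± 0.33 and not called. Smarcd3, Kdm5a, Chd5, Setd4, Smarcad1, Chd4 and Kdm1a were among the 43 members with 1 probe tested. No second probe could be set beside theirs. Where each probe lies in its transcript is not known here.

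**Figure D5:**
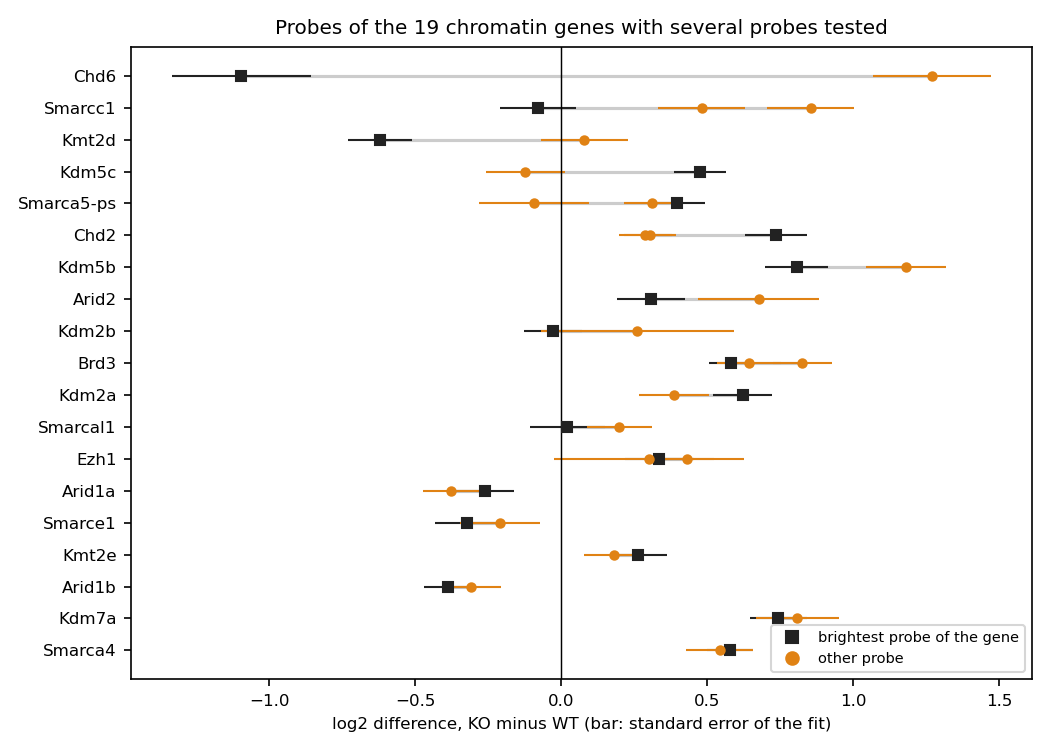
Log2 difference (PCKO minus WT, horizontal axis) of each tested probe for the 19 chromatin genes with several probes, with the standard error of a limma fit over all probes. Black squares are the brightest probe of a gene, which represents it elsewhere in the text, and orange circles the other probes. Chd6 spans -1.10 to 1.27, and Smarcc1 -0.08 to 0.86.

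Partners of these proteins from outside the set were read in lists of complexes, which overlap in some genes. The counts stand beside 38.3% higher and 32.7% lower over all genes, and several lists lie near or below these shares. Among 14 other BAF and PBAF subunits tested, 6 were higher and 2 lower (median 0.30). Dpf1, a subunit known from neuronal BAF, rose by 3.11 ± 0.26, and Dpf3, a relative known from heart and skeletal muscle BAF, fell by -1.41 ± 0.10. Of 10 PRC2 partners, 6 were higher and 1 lower (median 0.37), from Phf19 (0.998 ± 0.18) to Jarid2 (-0.68 ± 0.07). Of 11 NuRD partners, 5 were higher and none lower (median 0.25), with Mta3 highest (1.61 ± 0.07). Of 9 ISWI partners, 5 were higher and 1 lower (median 0.47), with Baz1a, the ACF1 subunit, at 1.86 ± 0.08 and Chrac1 at -0.47 ± 0.10.

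In PRC1, 11 of 18 were higher and 2 lower (median 0.35). Pcgf2 was well above background on every PCKO array and on no WT array, at least 3.43-fold higher when the WT mean is set at each array's lowest signal above background, and Pcgf5 was lower (-0.82 ± 0.17). Among 13 COMPASS partners of Kmt2 and Setd1 proteins, 4 were higher and none lower (median 0.23), with Wdr82 at 1.18 ± 0.09. Among 14 INO80 and SRCAP subunits, 8 were higher and 3 lower (median 0.31), from Actr5 (1.17 ± 0.11) to Actr6 (-0.37 ± 0.11). Of 21 other bromodomain proteins, 13 were higher and Trim24 alone was lower (median 0.45, Trim24 -0.71 ± 0.10).

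The other histone lysine methyltransferases split, with 8 of 21 higher and 7 lower (median 0.14). Nsd2, a writer of H3K36 dimethylation, was highest (1.76 ± 0.08), and Smyd1, a muscle-specific methyltransferase needed for sarcomere assembly, was lowest (-1.93 ± 0.18). Of 14 other JmjC proteins 5 were higher and 3 lower (median 0.26), from Jmjd7 (1.53 ± 0.13) to Hr, a nuclear receptor corepressor with demethylase activity (-5.07 ± 0.11). For the methyltransferases both counts were close to the shares over all genes. All medians in these lists were above the 0.06 of all genes, and with quantile normalization they stayed above its 0.15, the lowest being 0.18 for the methyltransferases. The counts depended on the scaling. With spike-in centring, where 54.0% of all genes were higher and 9.44% lower, 12 of 21 methyltransferases were higher and 3 lower, 12 of 14 BAF and PBAF subunits higher and 1 lower, 10 of 14 JmjC proteins higher and 1 lower, and 11 of 13 COMPASS partners higher. In that setting no member of the other lists was lower, and 8 of 10 PRC2, 8 of 11 NuRD, 7 of 9 ISWI, 15 of 18 PRC1, 10 of 14 INO80 and SRCAP and 18 of 21 bromodomain genes were higher.

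Promoter windows of 250 bases, each at the first listed start of its gene, were available for 49 of the 64 members. They were rich in CpG, with a median of 20 CpG against 15 over the windows of tested genes and 6 over all 27025 windows in the table. An E-box was in 46.9% of the members' windows, against 57.5% of tested genes and 66.0% of all. TATAAA was in 4.08% of the members' windows (6.94% of those of tested genes), TGACG, the short form of the CREB site, in 16.3% (26.6%), and CCAAT in 28.6% (34.5% of all windows), each read on both strands. The full CREB site TGACGTCA was in 0 of the 49 windows and in 2.69% of those of tested genes. Among members called higher and lower, 42.3% of 26 and 44.4% of 9 windows held an E-box, and the median CpG counts were 20.5 and 22. All these shares describe letters in a short window and say nothing about what binds there.

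Gene length and level were also set against the differences. Over the 62 members, the Spearman correlation of the log2 difference with the WT level was -0.24 (-0.20 over all genes), and with the length of the gene in the annotation it was 0.02. These are correlations across genes that share arrays and are given as a description.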

How the data were processed

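Cy3-labelled RNA of 4 PCKO and 4 WT mice was hybridised to Agilent mouse arrays, on 1 slide with 2 rows that each held 2 arrays of each group, per the file headers. The deposited scanner files hold spot intensity from Feature Extraction 10.7.3.1, background-subtracted within each array and not normalized between arrays, per the file headers. A series table of log2 values, also deposited, served only as an alternative: how the authors made it is not stated in the labels, and its scale, centring and background handling stay unknown.

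From the log2 processed intensity the 75th percentile of the array's non-control probes was subtracted. Control and outlier spots were left out and spots of a probe averaged. Probes had to be well above background on 4 or more of 8 arrays to be tested, and the brightest probe stood for its gene. Symbols came from 26582 probes whose unversioned accession matched a mouse RefSeq table (GRCm38.p6), and 29099 probes stayed unnamed. Probe sequences were not used, so cross-hybridisation between related genes was not assessed.

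The PCKO and WT groups were compared in limma 3.58.1 (R 4.3.3, two-sided, group only) with Benjamini-Hochberg adjustment over all 12738 genes, and ratios of related genes with an exact permutation test over mice. The members and lists were chosen with earlier results of these data known. Values per array were given for members by a rule: the 8 largest and 8 smallest differences without overlap, the extremes of each family, both genes of each pair, and members with opposed probes. The fit was tested on simulated data, in which 200 genes were changed. Same-numbered mice deviated together only weakly (r of 0.056, 0.124, 0.068 and 0.053), although each mouse correlated best with its own number. Group is the only labelled factor, so the numbers were not taken to pair the mice in the main fit. One member is counted but not reported by name here, and the plots by gene and by pair leave it out. The number of arrays limits the precision.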

Additional observations from a re-analysis of the deposited data

Results flagged for a closer look

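In 4 of 124 groups of 4 mice (62 genes in PCKO and in WT), 1 mouse lay far from the other 3 by Dixon's test at the 95% level. Chance flags about 1 in 20 groups. All 4 were PCKO mice. For Brd3, mouse 1 had 4.91, with the next value at 4.82. For Brd1, mouse 3 had -1.39, with the next at -1.22. For Ezh1, mouse 3 had 6.43, with the next at 6.25, and without it the gene was not called (0.29, limma, adjusted p = 0.068). For Kdm1b, mouse 3 had 2.77, with the next at 2.89. The distances were small in size, and the mouse at 2.31 for Smarcad1 did not pass this test.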

How the results depend on the processing

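Counts of members were stable under most settings and least so under those that change the scale, the background or the number of mice. With spike-in centring 1 member was lower and the median was 1.10. With normexp 6 were lower and the median was 0.49. With the deposited values, which cover 43 members, 23 were higher and 6 lower, the median was 0.30, and 6 of 8 pairs did not overlap. Within slide row 1 alone, with 2 mice per group, 24 were higher and 5 lower, and within row 2 alone 26 were higher and 4 lower. Leaving out each mouse gave 35 to 39 higher, 9 to 10 lower, medians of 0.38 to 0.45, and 13 to 15 pairs without overlap.

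With the replicate block, 35 members were higher and 11 lower (37.6% and 32.7% of all genes), and the median was 0.41. Arid2, Kdm3b, Kmt2e and Smarca5 lost their calls under the block, and each mouse's deviations correlated best with its own number, a hint from the data and not from the design. No block was fitted to the ratios.

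Signs changed as follows among members called in at least 1 of the settings compared. With spike-in centring, Arid1a was at 0.42, Arid1b 0.30, Brd7 0.37, Kdm2b 0.66, Kdm8 0.32, Kmt2d 0.062, Setd3 0.20, Setd7 0.020 and Smarce1 0.36, where the whole scale moved by 0.68. There, Kmt2c (0.65), Smarcc1 (0.60), Smarcd2 (0.56) and Smarca1 (0.50) also turned positive, called in neither setting. With normexp, Brd1 was at -0.027, Chd1 -0.016, Smarcd1 -0.46 and Smarce1 0.060, and with quantile normalization Brd7 was at 0.0096. With the deposited values, Brd7 was at 0.0041 and Kdm5c -0.078. With the mean of a gene's probes, Chd6 was at 0.087 and Smarcc1 0.42. Apart from the shift of scale, the cause was not tested. Dim probes such as Smarcd1, Brd2 and Chd1 limit what can be said.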
